A study of Mus musculus with 12 samples.

Results

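The 8 genes that write and erase 5-methylcytosine in mouse DNA were followed through 12 RNA-seq libraries of male germ cells. They were the maintenance methyltransferase gene Dnmt1 and its recruiter Uhrf1, the de novo methyltransferase genes Dnmt3a and Dnmt3b with their cofactor gene Dnmt3l, and the dioxygenase genes Tet1, Tet2 and Tet3. Members were taken by gene symbol, and all 8 were found in every library among 22549 symbols. The donors were wild-type male DBA/C57 F1 pups, 5 to 7 days old. For the treatment experiment, spermatogonial stem cells (mSSC), from which sperm production is renewed, were plated on laminin overnight. They then spent 24 h with retinoic acid (RA, 100 nM) plus cycloheximide (CHX, 0.25 mg/ml), which blocks translation, with 100 nM RA alone, or with vehicle. CHX alone was not among the groups. In the induction experiment, untreated mSSC were the baseline, and mSSC carrying GFP were placed on a layer of pup Sertoli cells inactivated with mitomycin. Sertoli cells support germ cells in the tubule wall. Cells positive for GFP and c-KIT were sorted on day 3 and are called induced differentiating spermatogonia (idSG). Cells positive for GFP and negative for c-KIT were sorted on day 6 and are called induced spermatocytes (iSC). The promoter that drives GFP is not given in the sources used here. All 6 groups had 2 biological replicates. Each mean ± SD therefore has n = 2, and a p-value measures nothing beyond the spread between these samples.

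DNMT1 copies methylation onto the new strand after DNA replication, and UHRF1 brings it to hemimethylated sites. DNMT3A and DNMT3B methylate sites without a template, and DNMT3L, which has no catalytic activity of its own, stimulates them and is required for methylation in prospermatogonia. TET proteins oxidise 5-methylcytosine, the first step of its removal. By the time of birth the male germ line has largely regained its methylation, so dividing spermatogonia mainly have to maintain it.

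Promoter windows of 4 members are printed because their levels differed between groups in different ways and their windows differ in sequence. The sequences are RefSeq's, on GRCm38.p6, 5′ to 3′ on the gene's strand, from 250 bases before to 50 bases after an annotated start. In the first pair of sequences, capitals mark 8-base E2F-type motifs, spelled TTTCCCGC, TTTCGCGC, TTTGCCGC or TTTGGCGC and searched on both strands. E2F factors drive genes of S phase. In the second pair, capitals mark CpG dinucleotides, the substrate of these enzymes. The windows are chr9:20952574-20952873 on the minus strand for Dnmt1, chr17:56304063-56304362 on the plus strand for Uhrf1, chr2:153649199-153649498 on the plus strand for Dnmt3b, and chr10:78042037-78042336 on the plus strand for Dnmt3l.
Dnmt1: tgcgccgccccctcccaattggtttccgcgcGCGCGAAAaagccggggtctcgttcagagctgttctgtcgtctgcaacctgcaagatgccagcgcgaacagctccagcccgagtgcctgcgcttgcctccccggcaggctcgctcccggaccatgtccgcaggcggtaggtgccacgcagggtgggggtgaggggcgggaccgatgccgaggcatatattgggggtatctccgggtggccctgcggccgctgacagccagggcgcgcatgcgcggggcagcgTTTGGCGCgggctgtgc
Uhrf1: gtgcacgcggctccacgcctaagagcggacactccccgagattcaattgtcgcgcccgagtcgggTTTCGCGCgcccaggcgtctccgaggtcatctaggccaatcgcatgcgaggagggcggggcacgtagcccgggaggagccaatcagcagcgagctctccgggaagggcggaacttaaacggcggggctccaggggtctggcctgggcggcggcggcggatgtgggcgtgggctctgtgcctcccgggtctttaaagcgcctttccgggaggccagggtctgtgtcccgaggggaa
Dnmt3b: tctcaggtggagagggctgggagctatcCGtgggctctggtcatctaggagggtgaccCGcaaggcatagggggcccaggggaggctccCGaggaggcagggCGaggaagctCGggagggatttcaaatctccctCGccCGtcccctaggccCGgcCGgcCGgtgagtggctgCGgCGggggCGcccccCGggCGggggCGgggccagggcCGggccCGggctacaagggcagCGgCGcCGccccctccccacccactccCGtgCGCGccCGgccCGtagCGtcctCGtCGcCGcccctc
Dnmt3l: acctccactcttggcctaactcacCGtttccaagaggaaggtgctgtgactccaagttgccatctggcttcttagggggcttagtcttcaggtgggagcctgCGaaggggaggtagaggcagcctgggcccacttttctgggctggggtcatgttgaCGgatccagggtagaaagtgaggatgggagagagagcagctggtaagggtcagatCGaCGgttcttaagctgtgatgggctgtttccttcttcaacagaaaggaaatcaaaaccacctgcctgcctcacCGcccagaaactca

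RefSeq listed 15 such windows for the 8 members. The printed Dnmt1 window held 2 E2F-type matches and the printed Uhrf1 window held 1, and no other member window held one. Of all 32851 promoter windows of the same length, 2.26% held the motif. Among windows of a list of DNA replication genes, 12 of 31 did (38.7%). These matches are letters in a window, not measured binding. The median window of all genes held 7 CpG. The printed Dnmt1 and Uhrf1 windows held 33 CpG each and the Dnmt3b window held 30, more than in 91.4% and 88.3% of all windows. Other starts of Dnmt1 held 2 and 12 CpG, and the other start of Uhrf1 held 12. For both genes the window printed was thus the richest in CpG and the one with E2F-type matches. The printed Dnmt3l window held 6, and its other starts held 4 and 3. The single Tet2 window held 57, more than in 99.8% of all windows, while the Tet1 and Tet3 windows held 17 and 22. Single half-sites of the RA receptor spelled AGGTCA, present in 16.3% of all windows on either strand, occurred once each in the printed Uhrf1 window, in the Tet1 window and in 1 of 3 Dnmt3a windows. The GC box GGGCGG (35.7% of all windows, either strand) was in at least 1 window of every member. The sequence CCAAT (37.4% of all windows, either strand) was in windows of Dnmt1, Uhrf1 and Tet3.

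The deposited values are FPKM, fragment counts scaled by transcript length and by library size, so levels can be set side by side between genes. How library size was set is not given in the sources used here. They are gene-level values, which cannot tell isoforms apart. In each library, 11872 to 12510 genes reached 1 FPKM. The absolute depth is unknown. The spacing of low values gave relative depths of 84.2% to 99.0% of vehicle replicate 1 in the treatment experiment, from a broad peak, and 84.5% to 99.6% of mSSC replicate 1 in the induction experiment. Labels were checked on Stra8, the RA-responsive gene needed for meiotic entry. It stood at 928 and 904 FPKM with RA and CHX and 537 and 584 FPKM with RA, against 22.9 and 24.4 FPKM with vehicle. Kit, the receptor used in the sort, stood at 105 and 65.9 FPKM in idSG, against 1.88 and 2.42 FPKM in mSSC.

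One feature of the induced libraries touches every induction result below. The summed FPKM of 11 Sertoli cell markers (12 were listed, and 1 is not used here) was 6.93 and 9.23 in the mSSC libraries, 586 and 1477 in idSG and 2169 and 2955 in iSC. It was between 6.33 and 12.6 in the treatment libraries. Clu, Inha and Aard supplied most of that sum in the induced libraries, while Fshr, the follicle-stimulating hormone receptor, was listed at 0 in mSSC and did not pass 0.185 FPKM in any induced library. Leydig cell markers summed to 2.61 and 2.42 FPKM in mSSC, 35.4 and 73.0 in idSG and 146 and 102 in iSC. Nearly all of that was Star, at 33.6 and 70.6 FPKM in idSG and 141 and 93.2 in iSC. Cyp11a1 and Hsd3b1 also rose, to at most 6.76 and 1.99 FPKM. Cyp17a1 did not rise (0.0942 and 0.134 FPKM in mSSC, at most 0.0349 in induced libraries), and Insl3 and Lhcgr did not pass 0.483 FPKM. Peritubular and fibroblast markers summed to 81.5 and 241 FPKM in mSSC, 235 and 162 in idSG and 520 and 392 in iSC. That list was split. In the test set out below, 4 of 11 were higher and 3 lower in iSC against mSSC (all genes 26.2% and 25.0%). Acta2 went from 1.14 and 0.243 FPKM in mSSC to 284 and 152 in iSC, and Col6a1 from 16.6 and 42.5 to 6.33 and 2.78. Macrophage markers stayed between 2.90 and 8.58 FPKM and endothelial markers between 2.15 and 5.06 FPKM over these 6 libraries. The 2 iSC libraries also differed in stem cell genes, with Zbtb16 at 3.76 and 32.2 FPKM and Gfra1 at 1.23 and 21.7 FPKM. In bulk libraries such as these, fewer cells of a type and less RNA per cell cannot be told apart.

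The members spanned a wide range of levels. Dnmt1 lay between 65.1 and 164 FPKM over all 12 libraries and Uhrf1 between 42.9 and 290 FPKM, placing Uhrf1 at rank 208 of all genes by mean level with vehicle and Dnmt1 at rank 477. The de novo pair stood lower, Dnmt3a between 15.3 and 26.2 FPKM and Dnmt3b between 8.12 and 40.9 FPKM. Tet3 held between 6.85 and 17.7 FPKM. Dnmt3l, Tet1 and Tet2 were near the bottom, with highest library values of 3.67, 0.441 and 2.21 FPKM. Between the highest and lowest group mean, levels differed 1.68-fold for Dnmt3a, 2.41-fold for Dnmt1, 2.50-fold for Tet3, 3.87-fold for Tet1, 4.35-fold for Dnmt3b, 5.82-fold for Uhrf1, 10.4-fold for Tet2 and 62.0-fold for Dnmt3l. The widest ranges therefore belonged to genes with low levels, where single reads weigh most, and to Uhrf1.

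**Figure D1:**
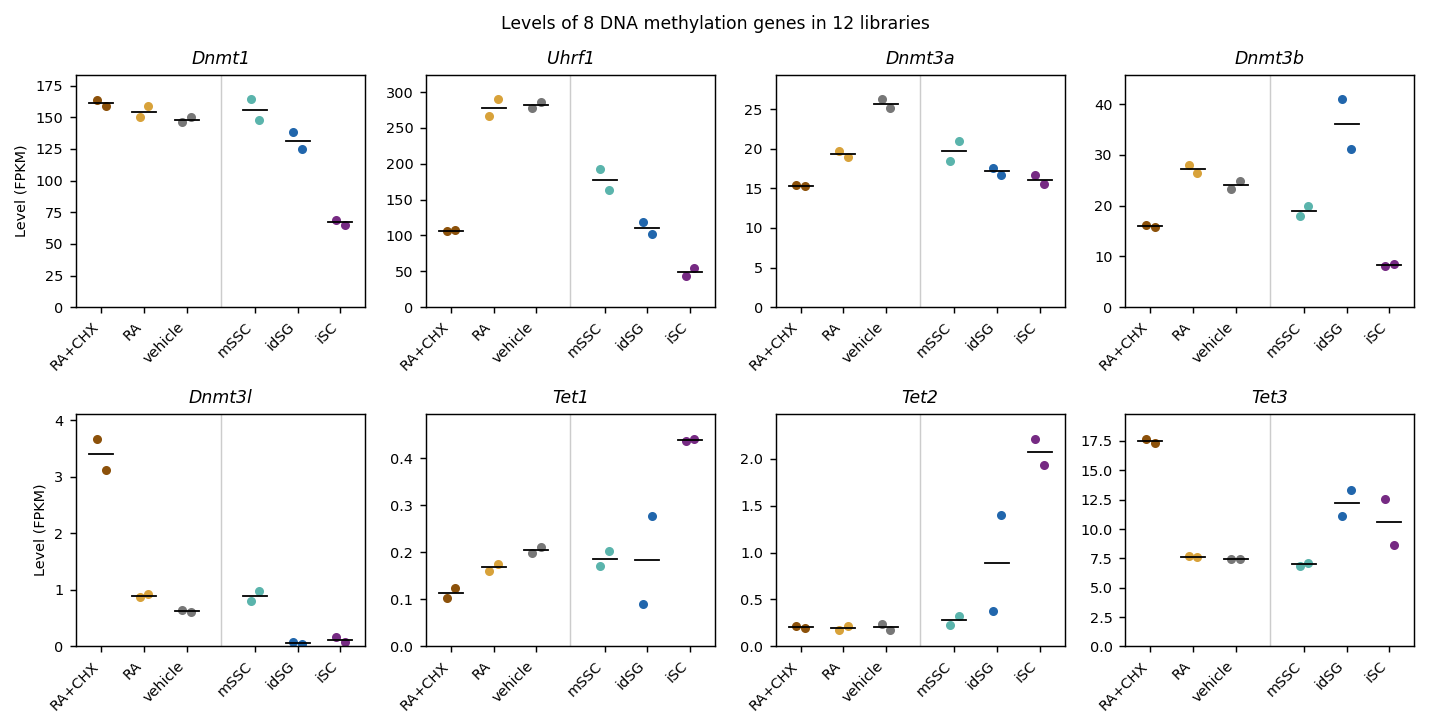
Level of each of the 8 genes in FPKM on the vertical axis, which starts at 0, by group on the horizontal axis, with each point a library, each bar the mean of 2 libraries and a grey line between the experiments. Uhrf1 is lowest with RA plus CHX among the treatments (107 FPKM) and in iSC among the induction groups (48.4 FPKM), while Dnmt1 stays between 146 and 164 FPKM in all treatment libraries.

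In order of group means, Dnmt1 ran from RA plus CHX, mSSC, RA and vehicle, whose neighbours overlapped, to idSG and then iSC, each without overlap. Uhrf1 was highest with vehicle and RA, which overlapped, followed by mSSC, then by idSG and RA plus CHX, which overlapped, and last by iSC. For Dnmt3b the order was idSG, RA, vehicle, mSSC, RA plus CHX and iSC, with no overlap between any neighbours. Dnmt3a was highest with vehicle and lowest with RA plus CHX, and only mSSC and RA overlapped among its neighbours. Tet3 was highest with RA plus CHX and lowest in mSSC, with overlap only between idSG and iSC. Tet2 was highest in iSC, then idSG, then mSSC, and its 3 treatment groups overlapped. Orders across the 2 experiments are descriptions, since culture and sorting differed between them.

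RA plus CHX was set against vehicle. Without a group given CHX alone, the effects of RA and of CHX cannot be told apart in this comparison. Uhrf1, Dnmt3a and Dnmt3b were lower, Dnmt3l and Tet3 were higher, and Dnmt1 rose slightly. Of the 8 members, 6 averaged 1 FPKM or more across this experiment's libraries and were tested, and Tet1 and Tet2 did not reach that mean. Limma on log2(FPKM + 1), with a Benjamini-Hochberg adjusted p under 0.05 over all genes, called all 6 of them, 3 in each direction. The same test called 79.3% of the 12339 genes tested (36.1% higher and 43.2% lower), so a call was common in this comparison. Dnmt3l passed the level filter only through the RA plus CHX libraries, where it was high, and is therefore no support for a count.

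Among maintenance genes, Uhrf1 stood at 106 and 107 FPKM with RA plus CHX, against 278 and 286 FPKM with vehicle. Both treated libraries were far below both vehicle libraries. The change was a log2 of -1.39 ± 0.04 (SE, adjusted p = 2.54e-07, limma), a mean of 37.8% of the vehicle level, and 4.82% of all tested genes had a lower change. Dnmt1 was 164 and 159 FPKM with RA plus CHX, against 146 and 150.2 FPKM with vehicle. Its groups did not overlap, but the log2 change was 0.12 (adjusted p = 0.0178). That call was lost after quantile normalization (0.01, adjusted p = 0.830), with all 12 libraries in 1 fit (adjusted p = 0.222) and without RA plus CHX replicate 1 (adjusted p = 0.112) or vehicle replicate 1 (0.0871). The level of Uhrf1 per level of Dnmt1 was 0.661 ± 0.0206 with RA plus CHX and 1.90 ± 0.00382 with vehicle.

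Transcripts of both de novo methyltransferase genes fell with RA plus CHX. Dnmt3a was 15.4 and 15.3 FPKM, against 26.2 and 25.1 FPKM with vehicle (log2 change -0.71 ± 0.04 SE, adjusted p = 2.90e-06). Dnmt3b was 16.2 and 15.8 FPKM, against 23.2 and 24.8 FPKM with vehicle (log2 change -0.56 ± 0.05 SE, adjusted p = 2.73e-05). Neither gene's treated libraries overlapped with vehicle. Their cofactor gene went the other way: Dnmt3l was 3.67 and 3.12 FPKM with RA plus CHX, against 0.652 and 0.614 FPKM with vehicle, a ratio of means of 5.36. On the log2(FPKM + 1) scale, which understates changes at such low levels, the change was 1.43 ± 0.08 (SE, adjusted p = 3.88e-06), and with a pseudocount of 0.1 it was 2.25. Dnmt3l entered that limma test only through its high RA plus CHX libraries, so this p-value is no support. With no filter its adjusted p was 5.89e-05. The summed level of the Dnmt3 genes was 34.7 ± 0.780 FPKM with RA plus CHX and 50.3 ± 0.301 FPKM with vehicle. Within it, Dnmt3l per Dnmt3a was 0.221 ± 0.0243 and 0.0246 ± 0.000313 with RA plus CHX and vehicle.

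Tet3, the most abundant of the 3 Tet genes in every library, rose with RA plus CHX. It stood at 17.7 and 17.3 FPKM, against 7.48 and 7.45 FPKM with vehicle, with a wide gap between the groups. The log2 change was 1.13 ± 0.04 (SE, adjusted p = 5.50e-07), and 97.6% of all tested genes had a lower change. Tet2 was 0.215 and 0.198 FPKM with RA plus CHX, against 0.234 and 0.178 FPKM with vehicle, with overlapping groups. Tet1 was 0.102 and 0.125 FPKM with RA plus CHX, against 0.199 and 0.212 FPKM with vehicle, without overlap and below the level tested. With no filter on low values, the Tet1 difference was a log2 of -0.11 (adjusted p = 0.00748) and the Tet2 difference was not called. The level of Dnmt1 per summed Tet level was 9.06 ± 0.0766 with RA plus CHX and 18.8 ± 0.506 with vehicle.

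RA plus CHX was also set against RA alone, which gives the effect of adding CHX when RA is present. Here 5 of the 6 tested members were called, 2 higher and 3 lower, and 77.6% of all genes were (35.1% higher and 42.5% lower). Dnmt3l, 1 of the 2 higher, again entered the test only through its high RA plus CHX libraries. It is no support for that count, and its p-value below is no support either. Uhrf1 was 106 and 107 FPKM with RA plus CHX and 267 and 290 FPKM with RA (log2 change -1.37, adjusted p = 4.32e-07). Dnmt3b was 16.2 and 15.8 FPKM with RA plus CHX and 28.1 and 26.3 FPKM with RA (log2 change -0.73, adjusted p = 7.98e-06). Both genes had no overlap between groups, and Dnmt3b with RA plus CHX was also below vehicle. The changes of Tet3 (1.10, adjusted p = 8.51e-07), Dnmt3l (1.21, adjusted p = 1.04e-05) and Dnmt3a (-0.32, adjusted p = 2.10e-04) had the same signs as against vehicle. Dnmt1 did not pass the test (0.07, adjusted p = 0.150), did after median-ratio scaling (0.10, adjusted p = 0.0383) and turned to -0.18 (adjusted p = 0.0171) after quantile normalization. These 2 comparisons share the RA plus CHX libraries, so their likeness is built in.

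With RA alone Dnmt3a fell, Dnmt3b rose slightly, and the other tested members were not called. Of 6 tested, 2 were called, 1 higher and 1 lower, against 52.7% of all genes (22.8% higher and 29.9% lower). Dnmt3a was 19.7 and 19.0 FPKM with RA, against 26.2 and 25.1 FPKM with vehicle, both RA libraries lying below both vehicle libraries. Its log2 change was -0.39 ± 0.04 (SE, adjusted p = 2.92e-04), and 9.57% of all genes had a lower one. Dnmt3b was 28.1 and 26.3 FPKM with RA, against 23.2 and 24.8 FPKM with vehicle. Its groups did not overlap, and the change was 0.17 ± 0.05 (SE, adjusted p = 0.0195). The Dnmt3b call was lost without RA replicate 1 (adjusted p = 0.104) or vehicle replicate 1 (0.101), and with all 12 libraries in 1 fit (0.425). Dnmt3b per Dnmt3a was 1.41 ± 0.0294 with RA and 0.935 ± 0.0701 with vehicle.

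Uhrf1 with RA was 267 and 290 FPKM, against 278 and 286 FPKM with vehicle, the RA libraries lying on either side of the vehicle libraries. The 95% interval of its log2 change was -0.12 to 0.08, and its sign turned after quantile normalization (0.11) and without RA replicate 1 (0.04) or vehicle replicate 2 (0.0030). Dnmt1 was 150.1 and 159 FPKM with RA and 146 and 150.2 FPKM with vehicle, barely overlapping (log2 change 0.06, adjusted p = 0.225, and 0.19, adjusted p = 0.0208, after quantile normalization). Tet3 was 7.71 and 7.60 FPKM with RA and 7.48 and 7.45 FPKM with vehicle, a log2 change of 0.03 (95% interval -0.07 to 0.13, adjusted p = 0.548). Dnmt3l was 0.876 and 0.923 FPKM with RA and 0.652 and 0.614 FPKM with vehicle, without overlap. It was tested here only because its RA plus CHX libraries raised its mean past the filter. Its change of 0.22 did not pass the test (adjusted p = 0.0632), but it did with a pseudocount of 0.1 (0.45, adjusted p = 0.0293) or 0.5 (0.30, adjusted p = 0.0433), or without the eBayes trend (adjusted p = 0.0345). Tet1, untested, was 0.161 and 0.174 FPKM with RA and 0.199 and 0.212 FPKM with vehicle. After quantile normalization 55.4% of all calls between RA and vehicle were higher, against 43.3% in the deposited values.

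**Figure D2:**
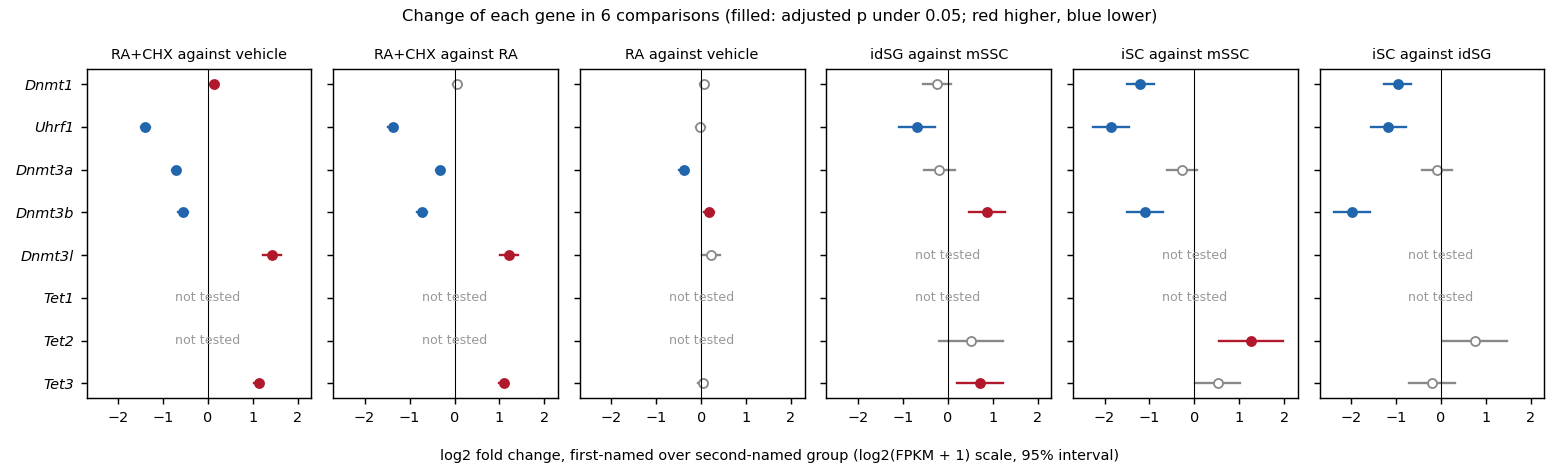
Log2 fold change of each gene, on the log2(FPKM + 1) scale with its 95% interval from limma, in 6 panels of comparisons named above them. Filled points passed an adjusted p of 0.05 (red higher, blue lower) and open grey points did not, with Uhrf1 at -1.39 and -1.37 in both comparisons of RA plus CHX and at -0.02 with RA alone.

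Genes that work with the members were taken from fixed lists. Counts of list genes called stand against all genes, of which 36.1% rose and 43.2% fell with RA plus CHX against vehicle, and 22.8% rose and 29.9% fell with RA against vehicle. Partner and reader counts were near or below those shares. Among 22 tested partners of maintenance and targeting, 5 rose and 9 fell with RA plus CHX against vehicle (median log2 change -0.06, all genes -0.0502). Hells, a remodeller needed for normal methylation, was 368 and 370.5 FPKM with RA plus CHX, against 222 and 226 FPKM with vehicle (adjusted p = 8.67e-07). Pcna, the replication clamp that also binds DNMT1, was 150.1 and 150.0 FPKM with RA plus CHX, against 269 and 260.1 FPKM with vehicle (adjusted p = 1.54e-06). With RA alone 3 partners rose and 8 fell, among them Cdca7, which binds HELLS, at 122 and 122 FPKM with RA, against 163 and 159 FPKM with vehicle (adjusted p = 7.85e-05). Of 8 tested readers of methylated DNA, 3 rose and 3 fell with RA plus CHX. The largest called reader change was that of Mbd1, which averaged 16.9 ± 0.175 FPKM with RA plus CHX and 11.7 ± 0.292 FPKM with vehicle.

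Of 14 genes of the S-adenosylmethionine cycle, which supplies the methyl group, 9 fell and 4 rose with RA plus CHX against vehicle (median -0.47, all genes -0.0502). Ahcy, whose enzyme clears the product that inhibits methyltransferases, was 49.0 and 49.6 FPKM with RA plus CHX, against 118 and 119.7 FPKM with vehicle (log2 change -1.26, adjusted p = 6.33e-08). Mtr, methionine synthase, was 38.0 and 37.0 FPKM with RA plus CHX, against 77.7 and 71.2 FPKM with vehicle. Of 17 genes of active demethylation beyond the Tet family, 11 fell and 5 rose (median -0.44). Neil3, a DNA glycosylase gene, was 1.77 and 1.55 FPKM with RA plus CHX, against 10.4 and 9.56 FPKM with vehicle (log2 change -2.05, adjusted p = 3.61e-07). Gadd45g, of the Gadd45 stress-response family, was 2.19 and 3.05 FPKM with RA plus CHX, against 10.5 and 13.2 FPKM with vehicle (log2 change -1.83). Among the genes that rose, Tdg, the glycosylase that removes oxidised methylcytosine, was 15.7 and 15.8 FPKM with RA plus CHX, against 11.7 and 8.44 FPKM with vehicle (adjusted p = 0.00288). With RA alone 10 of the 17 fell and 2 rose, with Ung, a uracil glycosylase, at 68.8 and 65.3 FPKM with RA, against 102 and 101 FPKM with vehicle.

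Germline genes known for promoters held silent by methylation in somatic cells were listed as a readout, 16 in number and all tested. With RA plus CHX, 15 were higher and 1 lower than with vehicle (median 0.60), where 36.1% of all genes were higher. All 16 were higher with RA plus CHX than with RA alone (median 0.55), where 35.1% of all genes were higher. With RA alone against vehicle 2 rose and 6 fell, where 22.8% of all genes rose and 29.9% fell. Mov10l1, a piRNA helicase gene, was 221 and 219 FPKM with RA plus CHX, against 80.7 and 85.6 FPKM with vehicle (log2 change 1.39, adjusted p = 2.01e-07), and Dpep3, a testis peptidase gene, was 70.7 and 75.8 FPKM with RA plus CHX, against 24.6 and 29.5 FPKM with vehicle. Mael, another piRNA pathway gene, fell (199 and 199 FPKM with RA plus CHX, against 243 and 243 FPKM with vehicle). These genes were already expressed in vehicle, at a summed 2122 and 2168 FPKM. Of 12 piRNA pathway genes that direct methylation to transposons, 9 rose and 2 fell with RA plus CHX against vehicle (median 0.63). Of all genes, 36.1% rose and 43.2% fell there. Mov10l1, Mael, Tdrd1, Asz1 and Ddx4 are in both lists. Methylation itself was not measured.

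The induction experiment followed the members from mSSC through idSG on day 3 to iSC on day 6. Uhrf1 fell at each stage, Dnmt1 was lower in iSC than in both earlier stages, Dnmt3b was highest in idSG and lowest in iSC, Dnmt3a changed least, and Tet2 was highest in iSC. Tested members numbered 6 of 8, since Dnmt3l and Tet1 stayed below a mean of 1 FPKM, and Tet2 passed that filter only through idSG replicate 2 and the iSC libraries. Replicates were further apart here than in the treatment experiment, with a posterior SE of 0.17 for Uhrf1 against 0.04 there. Limma called 3 of the 6 in idSG against mSSC (2 higher and 1 lower), beside 28.6% of all 12626 genes tested (17.9% higher and 10.7% lower). In iSC against mSSC it called 4 of 6 (1 higher and 3 lower), beside 51.2% of all genes (26.2% higher and 25.0% lower). The 1 higher member was Tet2, which the filter admitted only through its high libraries and which is no support for a count. Between iSC and idSG it called 3 of 6, all lower, beside 11.2% of all genes (4.46% higher and 6.75% lower).

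Dnmt1 was 164 and 148 FPKM in mSSC, 138 and 125 FPKM in idSG and 69.1 and 65.1 FPKM in iSC. The groups did not overlap at any step, and the iSC libraries lay far below the others. Dnmt1 in iSC was at 43.1% of its mean in mSSC (log2 change -1.20 ± 0.13 SE, adjusted p = 9.53e-04) and was also lower in iSC than in idSG (-0.96 ± 0.13 SE, adjusted p = 0.0175). Its change in idSG against mSSC did not pass the test (-0.24, 95% interval -0.54 to 0.06, adjusted p = 0.194), though it did with all 12 libraries in 1 fit (0.0324). Uhrf1 was 192 and 163 FPKM in mSSC, 119 and 102 FPKM in idSG and 42.9 and 54.0 FPKM in iSC, again with no overlap. It was lower in iSC than in mSSC (log2 change -1.86 ± 0.17 SE, adjusted p = 6.09e-04), and 1.89% of all genes had a lower change. The change was -0.69 in idSG against mSSC (adjusted p = 0.0250) and -1.17 in iSC against idSG (adjusted p = 0.0191).

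Calls between iSC and mSSC held for Dnmt1 and Uhrf1 without any 1 library (adjusted p at most 0.0134 and 0.00705). Others rested on single libraries. Uhrf1 in idSG against mSSC was not called without idSG replicate 2 (adjusted p = 0.120) or mSSC replicate 1 or 2 (0.178 and 0.0757). In iSC against idSG, Dnmt1 and Uhrf1 were not called without iSC replicate 1 (0.0514 and 0.0620), idSG replicate 1 (0.123 and 0.135), mSSC replicate 1 (0.0523 and 0.0509) or mSSC replicate 2 (0.0520 and 0.0502), nor in a fit of the 2 groups alone (0.0557 and 0.0521). Uhrf1 per Dnmt1 was 1.14 ± 0.0457 in mSSC, 0.835 ± 0.0354 in idSG and 0.725 ± 0.148 in iSC. The mSSC ratios lay above those of both induced groups, and the idSG and iSC ratios overlapped. A test of the difference between these ratios was not run.

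Genes of DNA replication, whose products act in the same phase of the cell cycle as DNMT1 and UHRF1, were set beside them. In iSC against mSSC, 23 of 32 were lower and the other 9 were not called (median -0.84, all genes -0.0285), where 25.0% of all genes were lower. Their changes ran from -1.72 for Cdt1, which licenses origins, to 0.28 for Rrm1. Dnmt1 lay within that range with 4 genes below it, and Uhrf1 lay below all 32. Cdt1 was 14.6 and 22.9 FPKM in iSC, against 66.3 and 59.3 FPKM in mSSC (adjusted p = 0.00162). In idSG against mSSC only Mcm10 and Gins3 were called, both lower, where 10.7% of all genes were lower. There 2 of the 32 lay below Uhrf1. With RA plus CHX against vehicle 9 were higher and 15 lower, near the shares of all genes (36.1% higher and 43.2% lower). Dnmt1 and Uhrf1 lay toward opposite ends of the list, with 25 and 3 of the 32 genes below them. Chaf1b, a histone chaperone subunit used at replication forks, was 5.83 and 5.65 FPKM with RA plus CHX, against 35.9 and 40.4 FPKM with vehicle (log2 change -2.54, adjusted p = 7.84e-08). With RA alone 16 of the 32 fell and 2 rose by smaller amounts (median -0.10), where 29.9% of all genes fell and 22.8% rose. Dnmt1 and Uhrf1 were not called there.

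**Figure D3:**
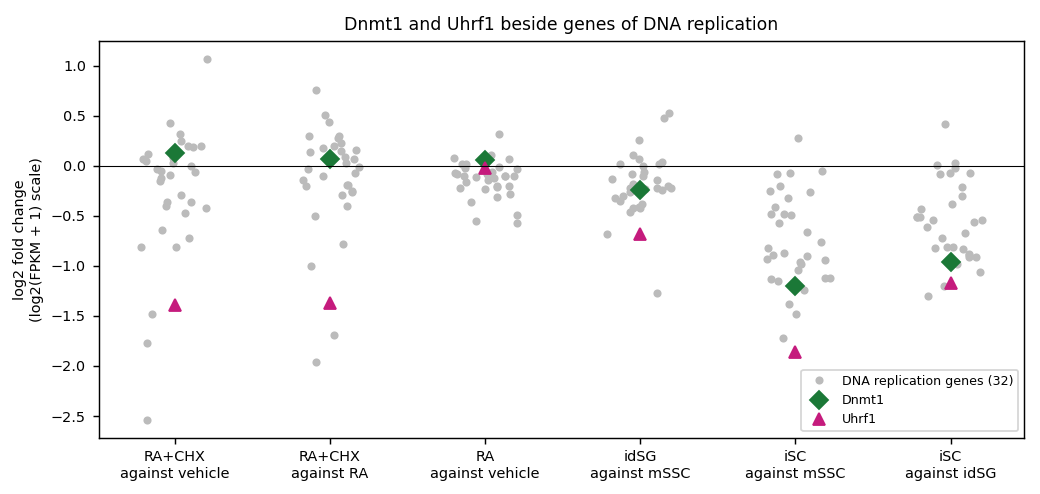
Log2 fold change on the log2(FPKM + 1) scale in 6 comparisons, with grey points for 32 DNA replication genes (spread sideways for clarity), a green diamond for Dnmt1 and a magenta triangle for Uhrf1. Uhrf1 lies below all grey points in iSC against mSSC (-1.86), and Dnmt1 (0.12) and Uhrf1 (-1.39) part in RA plus CHX against vehicle.

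Day and c-KIT sort differed together between idSG and iSC, and both groups also differed from mSSC in co-culture, so these cannot be told apart. Dnmt3b was highest in idSG. It was 18.1 and 20.0 FPKM in mSSC, 40.9 and 31.1 FPKM in idSG and 8.12 and 8.45 FPKM in iSC. Every idSG library was above every mSSC library, and both iSC libraries were below all others. The log2 change was 0.88 ± 0.17 (SE) in idSG against mSSC (adjusted p = 0.0126), -1.98 ± 0.17 in iSC against idSG (adjusted p = 0.00638) and -1.11 ± 0.17 in iSC against mSSC (adjusted p = 0.00276). In iSC against idSG only 0.198% of all genes had a lower change. The first of these calls was lost without mSSC replicate 1 (adjusted p = 0.0987) or 2 (0.0591), and the second without idSG replicate 1 (0.0720). Dnmt3c, a near copy of Dnmt3b in rodents that acts in male germ cells, has no value of its own here, so the Dnmt3b level is uncertain to the extent that its reads were counted there.

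Dnmt3a stayed almost level, at 18.5 and 20.9 FPKM in mSSC, 17.6 and 16.7 FPKM in idSG and 16.7 and 15.5 FPKM in iSC. Its 3 changes did not pass the test, with 95% intervals of -0.52 to 0.15 in idSG against mSSC, -0.61 to 0.06 in iSC against mSSC and -0.42 to 0.25 in iSC against idSG. With all 12 libraries in 1 fit the change in iSC against mSSC passed (adjusted p = 0.0165). Dnmt3b per Dnmt3a was therefore 0.966 ± 0.0163 in mSSC, 2.09 ± 0.326 in idSG and 0.516 ± 0.0417 in iSC, with no overlap between groups. Dnmt3l was 0.808 and 0.973 FPKM in mSSC, 0.0705 and 0.0390 FPKM in idSG and 0.166 and 0.0748 FPKM in iSC. All 4 induced libraries were far below both mSSC libraries. Dnmt3l was below the level tested, and with no filter its change was -0.84 in idSG against mSSC (adjusted p = 0.00879) and -0.75 in iSC against mSSC (adjusted p = 0.00426).

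**Figure D4:**
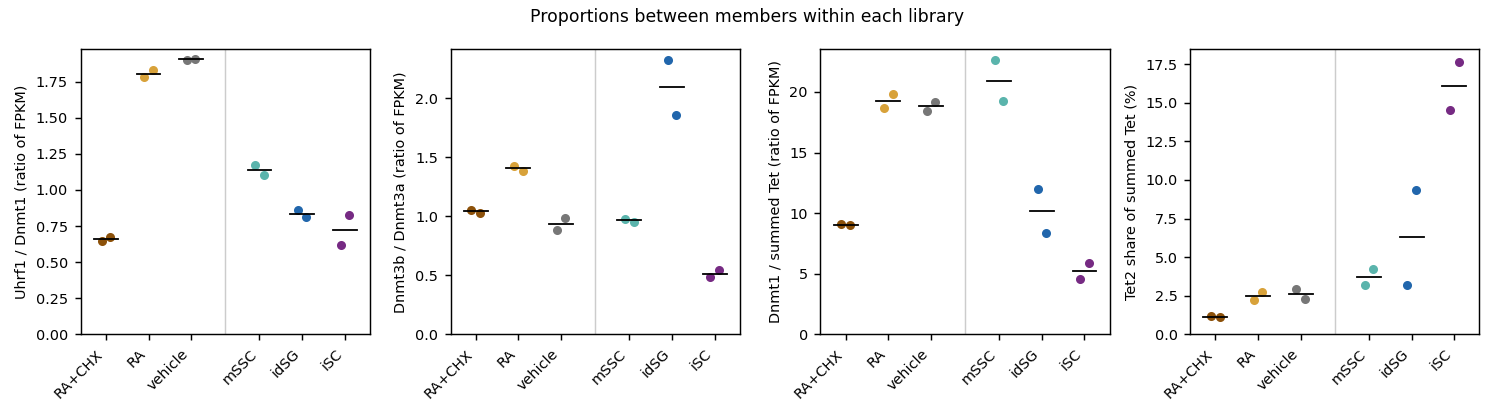
Proportions between members within each library on vertical axes that start at 0, by group, with each point a library, each bar the mean of 2 and a grey line between the experiments. Dnmt3b per Dnmt3a is highest in idSG (2.09), Dnmt1 per summed Tet level is 9.06 with RA plus CHX and 5.23 in iSC, and the Tet2 share of summed Tet FPKM is highest in iSC (16.1%).

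Among the erasers, Tet2 was 0.233 and 0.323 FPKM in mSSC, 0.373 and 1.40 FPKM in idSG and 2.21 and 1.94 FPKM in iSC. Both iSC libraries were above all others, and the idSG libraries were far apart. Tet2 entered the filtered limma test only through idSG replicate 2 and the iSC libraries, so the p-values of that test are no support. With no filter, its adjusted p in iSC against mSSC was 0.0210. In iSC against mSSC the ratio of means was 7.45 and the filtered test gave a log2 change of 1.27 ± 0.30 (SE, adjusted p = 0.0127). That call was lost without iSC replicate 1 (adjusted p = 0.0564) or mSSC replicate 1 (0.0620). In idSG against mSSC the change was 0.51 (adjusted p = 0.241), and it was 0.10 without idSG replicate 2 and 0.91 without replicate 1. In iSC against idSG it was 0.76 (adjusted p = 0.131, and 0.0258 with all 12 libraries in 1 fit). The Sertoli marker sum was higher in the idSG library with more Tet2 (1477 FPKM at 1.40 FPKM of Tet2, and 586 at 0.373). Within iSC the order was the opposite, with a sum of 2169 FPKM at 2.21 FPKM of Tet2 and 2955 at 1.94. Tet1 was 0.171 and 0.202 FPKM in mSSC, 0.0896 and 0.276 FPKM in idSG and 0.436 and 0.441 FPKM in iSC. It too was highest in iSC, where its change against mSSC with no filter was 0.28 (adjusted p = 0.0547).

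Tet3 was 6.85 and 7.13 FPKM in mSSC, 11.1 and 13.3 FPKM in idSG and 12.6 and 8.61 FPKM in iSC. All induced libraries were above both mSSC libraries, and idSG and iSC overlapped. Its change was 0.72 ± 0.21 (SE, adjusted p = 0.0450) in idSG against mSSC, which was not called without either idSG library (0.192 without replicate 2 and 0.0839 without replicate 1), without either mSSC library (0.203 and 0.160), with a replicate block (0.0630), after median-ratio scaling (0.05002) or quantile normalization (0.108), or with no filter (0.0797). In iSC against mSSC it was 0.52 (adjusted p = 0.0808), and 0.77 (adjusted p = 0.0218) without iSC replicate 2. With all 12 libraries in 1 fit its adjusted p was 0.0134. In iSC against idSG it was -0.20 (adjusted p = 0.534), and 0.05 without iSC replicate 2. The Tet3 share of summed Tet FPKM was 93.8% ± 0.919 in mSSC, 92.4% ± 5.09 in idSG and 80.5% ± 3.01 in iSC, while that of Tet2 was 3.72% ± 0.710, 6.30% ± 4.34 and 16.1% ± 2.20 in the same order. Dnmt1 per summed Tet level was 20.9 ± 2.36 in mSSC, 10.2 ± 2.55 in idSG and 5.23 ± 0.987 in iSC, and these groups did not overlap.

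Sertoli marker level and induction stage cannot be told apart in these 6 libraries. With the mean log2 level of those markers as a covariate, an alternative chosen after the data were seen, limma called 0 of the 6 tested members in all 3 induction comparisons. At an unadjusted p under 0.05 it then called 1 member in idSG against mSSC, 0 in iSC against mSSC and 3 in iSC against idSG. Of all 12626 genes tested, 778, 623 and 2658 passed that unadjusted threshold in the same order. Adjusted calls were lost among all genes too, as given in the last section. Within idSG, where the Sertoli sum was 586 and 1477 FPKM, Dnmt1 was 138 and 125 FPKM and Dnmt3b 40.9 and 31.1 FPKM, both lower in the library with more. Within iSC, where the sum was 2169 and 2955 FPKM, Dnmt1 was 69.1 and 65.1 FPKM, again lower with more. Dnmt3b was 8.12 and 8.45 FPKM there, higher with more. The part of these markers' cells in each member's change was not tested.

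**Figure D5:**
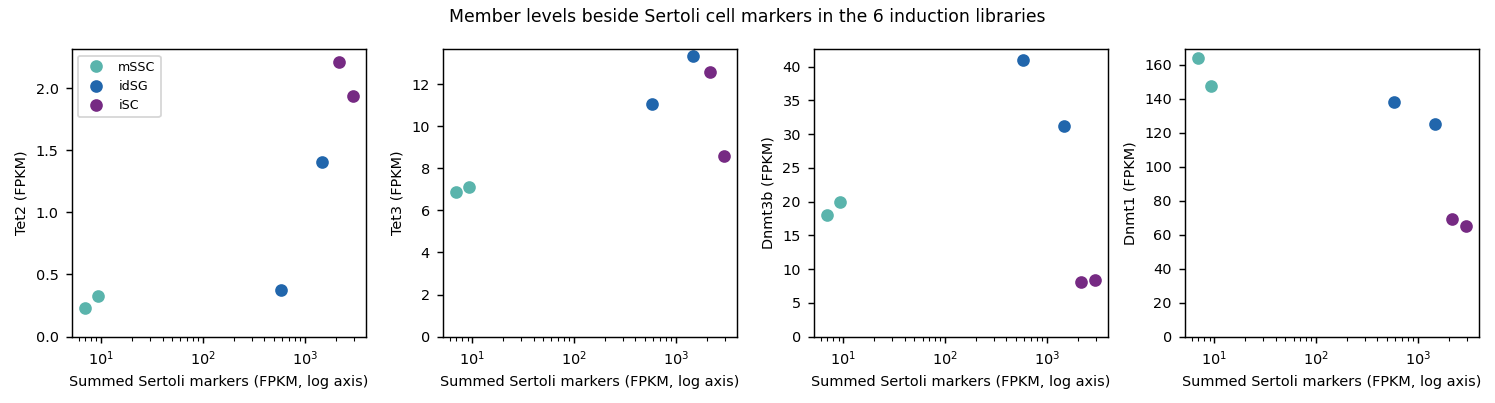
FPKM of Tet2, Tet3, Dnmt3b and Dnmt1 on vertical axes that start at 0, against summed FPKM of 11 Sertoli markers on a log axis, with each point 1 of the 6 induction libraries coloured by group. Marker sums of mSSC (6.93 and 9.23) stand apart from those of idSG (586 and 1477) and iSC (2169 and 2955), and Dnmt3b is highest at the middle sums.

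Counts of list genes called in iSC against mSSC stand against 26.2% of all genes higher and 25.0% lower. In iSC against mSSC, 11 of 23 partners of maintenance were lower and 12 were not called (median -0.48, all genes -0.0285). Cdca7 was 28.1 and 67.2 FPKM in iSC, against 185 and 175 FPKM in mSSC (log2 change -2.02, adjusted p = 0.00473), and Kdm1b, a histone demethylase gene needed for methylation in oocytes, was 13.5 and 21.1 FPKM in iSC, against 51.2 and 43.0 FPKM in mSSC. Of 13 tested genes of the S-adenosylmethionine cycle, 4 fell and 2 rose in iSC, with Shmt2, a mitochondrial folate enzyme gene, at 13.2 and 29.0 FPKM in iSC, against 83.9 and 92.7 FPKM in mSSC. Among 17 genes of active demethylation, 7 fell and 5 rose, the rises near the share of all genes. Gadd45b, a stress-response gene implicated in demethylation, was 57.4 and 151 FPKM in iSC and 69.9 and 189.5 FPKM in idSG, against 6.22 and 4.85 FPKM in mSSC. In both induced groups the higher library was the one with the higher Sertoli sum. Ung was 13.8 and 32.6 FPKM in iSC, against 86.2 and 84.1 FPKM in mSSC.

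Of the 16 germline genes with methylation-controlled promoters, 5 rose and 4 fell in iSC against mSSC (median 0.22), both counts near the shares of all genes. Hormad1 of the meiotic axis was 191 and 117 FPKM in iSC, against 18.2 and 18.0 FPKM in mSSC (log2 change 2.98, adjusted p = 3.92e-04), and Sycp3 of the same axis 491 and 284 FPKM in iSC, against 86.4 and 88.3 FPKM in mSSC. Tdrd1, a piRNA pathway gene, was 12.6 and 20.5 FPKM in iSC, against 54.9 and 49.8 FPKM in mSSC. Of the 12 piRNA genes, 8 fell and 1 rose (median -0.73). Tex15, which takes part in piRNA-directed silencing and in meiotic recombination, was the one that rose, at 74.2 and 61.6 FPKM in iSC, against 48.0 and 40.6 FPKM in mSSC.

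Genes most like each member in pattern were named among 9010 genes averaging 5 FPKM or more, by Pearson's r of log2(FPKM + 1) over the 12 libraries after each experiment's mean was removed. These libraries share groups, so r is a description. Closest to Dnmt1 were Srsf4 (r = 0.992), Gak (0.991) and Rfc5 (0.988), and closest to Uhrf1 were Arid3a (0.994) and Mapk7 (0.991). Dnmt3a was most like Pex19 (0.956), Fam189b (0.946) and Nras (0.945). Dnmt3b was most like Erg (0.973), Lmnb1 (0.971) and Gstt3 (0.963), and Dnmt3l was most like Lman1 (0.983), Baz1b (0.982) and Ankfy1 (0.970). For the Tet genes the closest were Hmbox1 (0.955), Myo1e (0.953) and Zbtb38 (0.949) with Tet1, Klhl22 (0.987), Tulp4 (0.986) and Pdcd6ip (0.973) with Tet2, and Zfp568 (0.981), Hlcs (0.974) and Rapgef1 (0.973) with Tet3. Among the members themselves r was highest for Tet1 with Tet2 (0.873), 0.685 for Dnmt1 with Uhrf1, and lowest for Dnmt1 with Tet2 (-0.906).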

How the data were processed

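Libraries were made from TRIZOL-isolated, DNase-treated total RNA and read on an Illumina HiSeq, per the labels' protocols. The deposited values are FPKM per gene symbol, made by the authors with TopHat2 2.0.6 and Cuffdiff on mm9, per the submitters' processing notes. No source used here gives the Cuffdiff version or scaling, and the depth of each library is unknown. One vehicle file repeated 25 lines, which were counted once.

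Groups came from the sample labels. Each experiment was fitted alone in limma 3.58.1 (R 4.3.3) on log2(FPKM + 1) without further scaling, over genes averaging 1 FPKM or more in its 6 libraries. Group was the single factor, which left 3 residual degrees of freedom, and eBayes used a trend. A call needed a Benjamini-Hochberg adjusted p under 0.05 across all tested genes. Exact permutation tests of 2 libraries against 2 were not run, as their smallest p is 0.333. The fit was first tested on simulated data.

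Tables and figures were made in Python 3.11.15 with pandas 2.3.3, numpy 2.4.6 and matplotlib 3.10.9. The members and lists were chosen with earlier results of these data known. Genes named beside the members were the 3 most alike in pattern, up to 2 highest and 2 lowest called changes of each list among genes averaging 5 FPKM or more, and markers that check the labels. The text prints a selection of the list genes that this rule allows, made with their values seen, and 1 gene of those alike in pattern is not reported here. Promoter sequences came from RefSeq on GRCm38.p6, and no coordinate was converted. Other settings tried were a pseudocount of 0.1 or 0.5, no filter, a minimum mean of 5 FPKM, median-ratio scaling, quantile normalization, a replicate block, the 2 groups alone, all 12 libraries in 1 fit, eBayes without trend, the highest copy of a symbol, and leaving out each library. A Sertoli marker covariate and the repeated lines summed were added after seeing the data.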

Additional observations from a re-analysis of the deposited data

How the results depend on the processing

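Counts of members called stand against all genes, of which 52.7% were called in RA against vehicle. For RA plus CHX against vehicle and against RA the shares were 79.3% and 77.6%. They were 28.6% in idSG against mSSC, 51.2% in iSC against mSSC and 11.2% in iSC against idSG. Dnmt3l and Tet2, admitted through their high libraries, are no support for the counts. Members called in RA against vehicle were 2 in the deposited values and 1 with all 12 libraries in 1 fit. They were 3 with a pseudocount of 0.1 or 0.5, quantile normalization or eBayes without trend. In RA plus CHX against vehicle the count was 6, and 7 with no filter. It was 5 after quantile normalization, with all 12 libraries in 1 fit or with a minimum mean of 5 FPKM. Against RA it was 5, and 6 with no filter, median-ratio scaling or quantile normalization. A minimum mean of 5 FPKM gave 4 there. In idSG against mSSC it was 3, 0 with the Sertoli covariate and 0 to 3 without single libraries. Where limma called 0 in that comparison, an unadjusted p under 0.05 gave 1 with the covariate, 2 without mSSC replicate 1 and 3 without mSSC replicate 2. In iSC against mSSC it was 4, 0 with the covariate (0 at an unadjusted p under 0.05) and 3 to 5 without single libraries. In iSC against idSG it was 3, 1 in a fit of the 2 groups alone, 0 with the covariate (3 at an unadjusted p under 0.05) and 0 to 3 without single libraries, the 0 being without idSG replicate 1 (3 at an unadjusted p under 0.05).

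Genes called with all 12 libraries in 1 fit were 510 in RA against vehicle, 6290 and 5858 for RA plus CHX against vehicle and RA, 6562 in idSG against mSSC and 5272 in iSC against idSG. With the Sertoli covariate 0 were called in idSG against mSSC (778 at an unadjusted p under 0.05), 0 in iSC against mSSC (623) and 10 in iSC against idSG (2658). In the last comparison 1415 genes were called in the deposited values, 623 with no filter, 911 with the replicate block and 151 in the 2 groups alone. Without single libraries the counts were 5088 to 6024, 8976 to 9775 and 8671 to 9591 in the treatment comparisons of RA with vehicle, RA plus CHX with vehicle and RA plus CHX with RA, and 942 to 4199, 3442 to 6302 and 10 to 1557 for idSG with mSSC, iSC with mSSC and iSC with idSG. The lowest were without mSSC replicate 1, mSSC replicate 1 and idSG replicate 1. Higher calls were 45.5% in RA plus CHX against vehicle and 54.9% after quantile normalization, 62.7% in idSG against mSSC and 49.7% after quantile normalization, and in iSC against idSG 39.8%, and 53.1% after median-ratio scaling.

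Signs turned for Uhrf1 in RA against vehicle (0.11 after quantile normalization, and -0.0778 to 0.0388 without single libraries, above 0 without vehicle replicate 2 or RA replicate 1), for Dnmt1 in RA plus CHX against RA (-0.18 after quantile normalization) and for Tet3 in iSC against idSG (-0.45 to 0.0468 without single libraries, above 0 without iSC replicate 2). With the covariate they turned for Dnmt1 (0.29), Dnmt3a (0.06) and Tet2 (-2.07) in idSG against mSSC and for Dnmt3a (0.0139), Dnmt3b (0.26), Tet2 (-1.71) and Tet3 (-0.0823) in iSC against mSSC. The cause was not tested. Quantile normalization moved the median change of all genes to 0.0575 in RA plus CHX against vehicle, from -0.0502, and to -0.0535 in idSG against mSSC, from 0.0499, and the covariate moved that median to 0.161 and that of iSC against mSSC to 0.0896. The labels do not say whether replicate numbers pair the libraries. Deviations of same-numbered libraries correlated between -0.0250 and 0.0918, which shows no large shared shift but cannot settle whether they were prepared together. With the replicate block 2, 6, 5, 2, 4 and 3 members were called over the 6 comparisons in the order of the first paragraph, and the call it changed was Tet3 in idSG against mSSC (adjusted p = 0.0630). Unknown depth limits Dnmt3l, Tet1 and Tet2 most, and keeping the highest copy of a symbol or summing the repeated lines changed no member's call.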
